A study of Homo sapiens with 4 samples.

Results

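The peaks described here are those whose summit, the highest point of the peak, lay within 3 kb of either end of a RefSeq protein-coding gene on chromosomes 1 to 22. The rule used positions only. It chose 684 of 17761 peaks, 193 of 6251 in cells given H2O2 alone and 491 of 11510 in cells given H2O2 + BHBNa. H3K4bhb, histone H3 carrying beta-hydroxybutyrate on lysine 4, was mapped with ChIP-seq, the sequencing of DNA pulled down with an antibody to the mark, in HK-2, an established line of human renal tubular epithelial cells. One group was exposed to hydrogen peroxide (H2O2), and the other received sodium beta-hydroxybutyrate (BHBNa) before H2O2; their peaks are called the H2O2 list and the BHBNa list. No doses or times are stated in the labels, and no group without H2O2 was analysed here. A treatment had a single antibody (IP) library and a single control, titled IgG but named input, so no difference between treatments has a replicate check.

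Beta-hydroxybutyrate is a ketone body that the liver releases during fasting, and cells can attach it to lysines of histones through its coenzyme A form. Lysine 4 of histone H3 is best known for its methylated form, which marks the start of actively transcribed genes, many of them in stretches rich in the dinucleotide CpG. The finish of a gene, where transcripts are cleaved and polyadenylated, usually lacks that methylated mark.

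Of members nearest a start, 1 of 73 in the H2O2 list covered it (OR10A2), as did 3 of 169 in the BHBNa list (PDIA4, NMT2 and TECTA). These peaks had median widths of 290 and 315 bp in windows of 3 kb to each side. Most would thus miss the start by position alone, and the share to be expected was not computed. The sequence just before the start of these genes is shown because it holds the few bases in which a peak met a promoter, and MPDZ is added as a CpG-rich promoter that a peak overlapped without covering the start. The sequences come from RefSeq, assembly GRCh38.p14, the build of the peak files, and run 5′ to 3′ on the gene's strand toward the start. Capitals mark bases inside the peak.

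PDIA4, chr7:149028506-149028740, minus strand: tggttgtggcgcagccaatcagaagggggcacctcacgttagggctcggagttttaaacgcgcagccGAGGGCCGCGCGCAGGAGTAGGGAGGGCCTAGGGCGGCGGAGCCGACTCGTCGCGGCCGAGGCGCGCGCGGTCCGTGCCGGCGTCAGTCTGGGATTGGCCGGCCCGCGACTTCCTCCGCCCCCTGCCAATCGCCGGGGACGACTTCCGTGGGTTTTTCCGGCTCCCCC
NMT2, chr10:15168694-15168943, minus strand: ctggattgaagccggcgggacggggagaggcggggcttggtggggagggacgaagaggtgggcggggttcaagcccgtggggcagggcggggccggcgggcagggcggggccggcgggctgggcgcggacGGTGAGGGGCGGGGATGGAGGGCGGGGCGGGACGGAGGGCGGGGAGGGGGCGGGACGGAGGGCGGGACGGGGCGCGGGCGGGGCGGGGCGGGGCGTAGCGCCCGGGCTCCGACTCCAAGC
MPDZ, chr9:13279693-13279942, minus strand: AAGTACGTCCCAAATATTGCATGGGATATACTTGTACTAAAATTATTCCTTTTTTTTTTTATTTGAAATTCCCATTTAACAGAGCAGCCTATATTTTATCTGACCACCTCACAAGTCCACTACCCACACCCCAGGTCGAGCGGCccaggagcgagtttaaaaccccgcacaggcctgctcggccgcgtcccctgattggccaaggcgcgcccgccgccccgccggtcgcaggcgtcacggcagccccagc
OR10A2, chr11:6862807-6863056, plus strand: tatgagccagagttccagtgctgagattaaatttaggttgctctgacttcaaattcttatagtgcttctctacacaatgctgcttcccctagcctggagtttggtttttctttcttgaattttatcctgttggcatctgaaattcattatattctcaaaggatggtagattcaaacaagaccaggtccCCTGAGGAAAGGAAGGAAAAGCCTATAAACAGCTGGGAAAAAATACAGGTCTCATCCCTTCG
TECTA, chr11:121100993-121101242, plus strand: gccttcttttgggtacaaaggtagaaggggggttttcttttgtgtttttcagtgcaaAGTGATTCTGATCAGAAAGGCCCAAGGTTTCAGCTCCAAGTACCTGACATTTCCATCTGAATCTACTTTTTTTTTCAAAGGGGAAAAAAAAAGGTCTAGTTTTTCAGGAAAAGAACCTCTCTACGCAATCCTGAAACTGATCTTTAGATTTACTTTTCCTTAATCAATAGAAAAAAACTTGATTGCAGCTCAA

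PDIA4 encodes a disulfide isomerase of the endoplasmic reticulum. Its 235 bases held 32 CpG and 71.1% G and C, and the peak covered 168 of them. The letters GGGCGG (the GC box, read on both strands) occurred at 2 places and CCAAT at 3. NMT2 encodes an enzyme that attaches myristate to proteins. Its 250 bases held 34 CpG, 82.0% G and C and 12 matches to the GC box, some of them close together. In MPDZ, a scaffold protein with many PDZ domains, the 144 bases in the peak were the part farther from the start, and the stretch held 17 CpG. OR10A2, an olfactory receptor, and TECTA, a protein of the inner ear's tectorial membrane, had CpG-poor sequence with 1 CpG in 250 bases each. The letters TATAAA stood in the peak's part of the OR10A2 sequence. The 5 peaks had folds of 5.44 (PDIA4), 4.54 (NMT2), 2.63 (MPDZ), 2.96 (OR10A2) and 2.61 (TECTA), where fold is the authors' enrichment of the summit over the local control background, with 1 fragment added to both. PDIA4 rested on 5 IP fragments and NMT2 on 4, against 3 at OR10A2 and 2 at MPDZ and TECTA.

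All these counts of fragments were small, and the lists differed in how small they could be. The number of fragments at a summit was recovered from the deposited fold and p-value as a whole number for 99.95% of the peaks of the H2O2 list and 100% of the BHBNa list. The lowest local background was 0.274 fragments for H2O2 alone and 0.102 with BHBNa. The lowest number of fragments that made a peak was 3 in the H2O2 list and 2 in the BHBNa list. Read totals were not used here. The lists differ in these values as well as in treatment, and the part of this in each difference between them was not tested.

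Gene ends held fewer summits than their share of the sequence. Windows of 3 kb around 38252 ends of 19126 genes covered 189 Mb, 6.59% of the 2873 Mb between the first and last gene of each chromosome. On chromosomes 1 to 22, 193 of 5879 summits of the H2O2 list lay in them, 3.28% (95% Wilson interval 2.86 to 3.77). In the BHBNa list it was 491 of 10760, 4.56% (4.18 to 4.97). Both intervals lay below the share of sequence, and they did not overlap each other. Among peaks of at least 3 IP fragments, which all H2O2 peaks had, the BHBNa share was 3.99% (3.49 to 4.56), an interval that overlaps that of H2O2. Among peaks with a corrected p-value (q) of at most 0.05 the shares were 1.44% (0.663 to 3.11) and 5.11% (4.14 to 6.3).

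As a density, the windows held 1.02 summits per Mb in the H2O2 list (exact Poisson 95% interval 0.881 to 1.17), against 2.05 over chromosomes 1 to 22. In the BHBNa list they held 2.59 (2.37 to 2.83), against 3.74. Chromosomes differed in both respects. Chromosome 19, with windows over 22.8% of its sequence, had 0.444 peaks per Mb in the H2O2 list and 1.98 in the BHBNa list, while chromosome 12, with windows over 7.66%, had 2.12 and 4.49. With each chromosome at its own average density, the windows would hold 351 and 678 summits. The observed counts were 0.549 (0.474 to 0.632) and 0.724 (0.662 to 0.791) times these numbers, summed over chromosomes. Gaps of the assembly, where no peak can lie, were not taken out of any length, so the averages are low estimates. Whether windows were denser on single chromosomes can thus not be read from these values. Chromosome 13 gave 2.77 in windows against 2.45 per Mb in the H2O2 list, from 10 summits in windows. Chromosome 22 gave 2.28 against 1.93 in the BHBNa list, also from 10. All intervals cover counting error within 1 library only.

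Density was lowest next to the end itself. In the H2O2 list it was 1.37 summits per Mb at 2 to 3 kb from an end, 1.10 at 1 to 2 kb and 0.649 within 1 kb. The BHBNa list gave 2.80, 3.06 and 2.0 at the same distances. Farther out, the H2O2 list held 1.41 per Mb at 3 to 5 kb, 1.19 at 5 to 10 kb, 1.46 at 10 to 20 kb, 1.82 at 20 to 50 kb and 2.51 beyond 50 kb. The BHBNa list held 3.67, 3.62, 3.70, 3.94 and 3.85 there. The H2O2 density was thus below its average of 2.05 up to 50 kb, with an interval of 1.70 to 1.94 at 20 to 50 kb. The BHBNa density ran from 3.62 to 3.94 from 3 kb on, beside an average of 3.74. Both averages, and the values beyond 50 kb, include assembly gaps and are low estimates, by an amount that was not computed. Peaks of at least 3 IP fragments, a limit chosen after seeing the data, gave a BHBNa average of 1.80. Their density was below it up to 20 kb, with 1.62 (1.48 to 1.77) at 3 to 10 kb and 1.65 (1.51 to 1.81) at 10 to 20 kb. At 20 to 50 kb it was 1.83 (1.71 to 1.95).

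Strand was known for 15101 of the genes (79.0%), which separates starts from finishes of transcription. Starts and finishes are the ends of the gene's span, and an annotated start can lie elsewhere in the gene. Within 1 kb of a start the H2O2 list had 11 summits, 0.407 per Mb (0.203 to 0.728). Within 1 kb of a finish it had 28, 1.01 per Mb (0.673 to 1.46). The BHBNa list had 36 summits within 1 kb of a start, 1.33 per Mb (0.933 to 1.84), and 70 within 1 kb of a finish, 2.53 per Mb (1.97 to 3.20). Starts were lower than finishes in both lists, with intervals that overlapped slightly in the H2O2 list and not in the BHBNa list. From 1 kb outward the kinds of end no longer separated: at 1 to 2 kb the H2O2 list had 1.18 per Mb at starts and 1.17 at finishes, and the BHBNa list 2.60 and 3.4, with overlapping intervals.

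**Figure D1:**
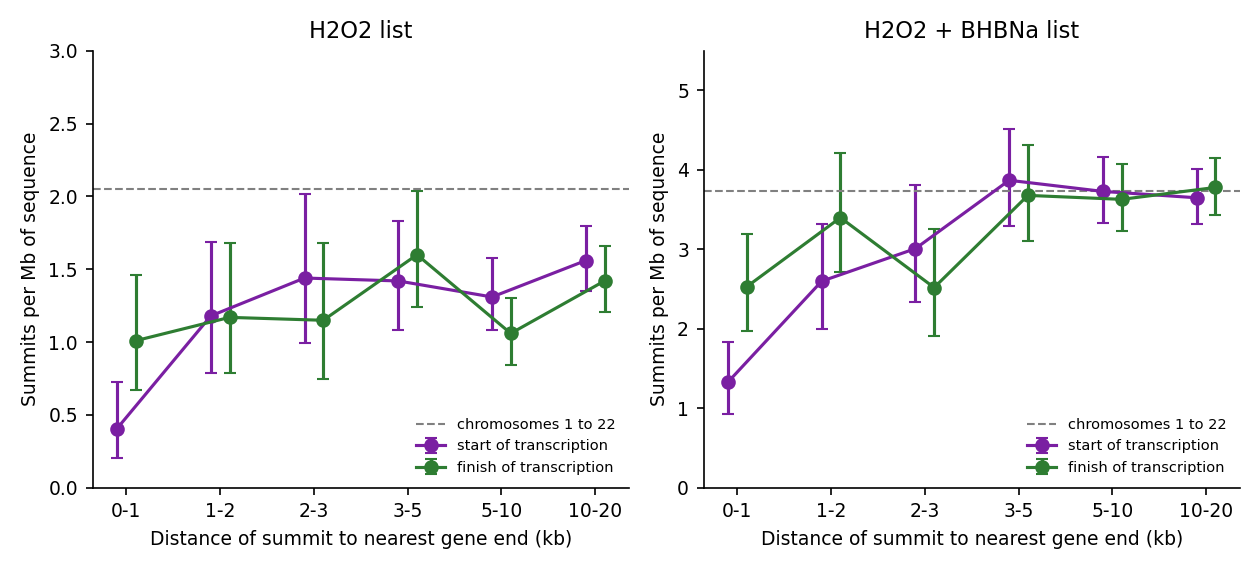
Summits per Mb of sequence (vertical axis, linear from 0, scaled for each panel) against the distance to the nearest gene end in kb, for starts (purple) and finishes (green), with exact Poisson 95% intervals. The dashed line is the density over chromosomes 1 to 22, 2.05 and 3.74 per Mb; the lowest point of each panel is the first kb around a start, 0.407 and 1.33 per Mb.

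Around ends of known strand, the sparsest stretch was the first kb inside the gene after its start. It held 4 summits in the H2O2 list, 0.285 per Mb (0.0776 to 0.729), and 11 in the BHBNa list, 0.783 per Mb (0.391 to 1.40). The kb before the start held 7 and 25 summits, 0.540 (0.217 to 1.11) and 1.93 per Mb (1.25 to 2.85), and these intervals overlapped those inside. Around a finish the sides were alike: the kb inside held 14 and 35 summits (1.01 and 2.51 per Mb) and the kb beyond held 14 and 35 (1.02 and 2.55). The densest stretch within 3 kb in the BHBNa list was 1 to 2 kb beyond the finish, with 49 summits and 4.05 per Mb (3.0 to 5.36), an interval that includes the average of that list.

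**Figure D2:**
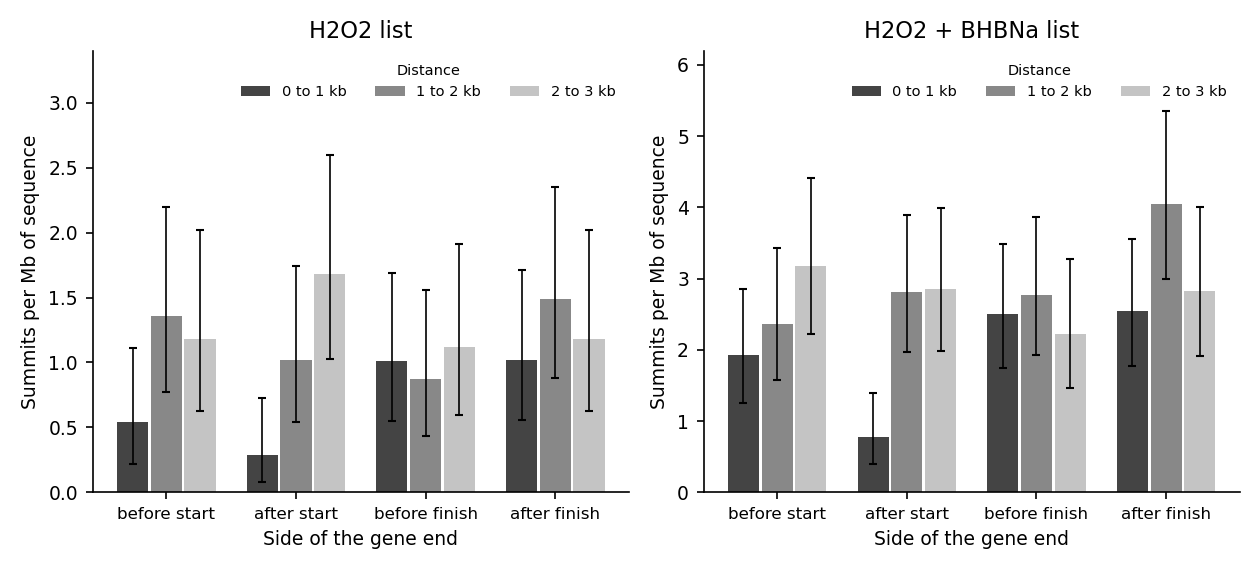
Summits per Mb (vertical axis, linear from 0, scaled for each panel) on each side of starts and finishes, in steps of 1 kb, with exact Poisson 95% intervals as bars. The shortest bar in each panel is the first kb inside the gene after its start, 0.285 per Mb in the H2O2 list and 0.783 in the BHBNa list.

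The low density at starts was also looked at by promoter type and by limits chosen after seeing the data. Promoters were called CpG-rich where the observed over expected CpG ratio was at least 0.6. Within 1 kb of CpG-rich starts the H2O2 list had 4 summits, 0.228 per Mb (0.0622 to 0.584), and within 1 kb of the other starts 7, 0.737 per Mb (0.296 to 1.52). The BHBNa list had 22 summits, 1.26 per Mb (0.787 to 1.90), around CpG-rich starts and 14, 1.47 per Mb (0.806 to 2.47), around the others. Intervals of the classes overlapped in both lists, and neither class reached the average of its list.

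When only peaks with at least 3 IP fragments were counted, the lists came close to each other at gene ends. The BHBNa list then had 207 members and 1.09 summits per Mb of window (0.950 to 1.25), and the H2O2 list, which held no smaller peaks, had 193 and 1.02. Within 1 kb of a start the densities were 0.407 in the H2O2 list and 0.444 in the BHBNa list, and within 1 kb of a finish 1.01 and 1.12. Over chromosomes 1 to 22 the same limit gave 2.05 and 1.80 per Mb. Starts stayed below finishes in both lists, with intervals that overlapped slightly, while the density of members no longer separated the lists. A limit of 3 fragments is not matched between the lists, whose lowest local backgrounds were 0.274 (H2O2) and 0.102 fragments (BHBNa). With a q of at most 0.05 instead, starts and finishes within 1 kb did not separate. The BHBNa list had 0.296 (0.128 to 0.583) and 0.398 (0.199 to 0.712), and the H2O2 list 0 (up to 0.137) and 0.0724 (0.00877 to 0.261). Members then separated the lists, at 0.0317 (0.0116 to 0.069) for H2O2 and 0.438 (0.349 to 0.544) for BHBNa. All peaks gave 0.145 and 0.565.

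Among members with known strand, 73 of 156 in the H2O2 list were nearest a start, 46.8% (39.1 to 54.6), as were 169 of 380 in the BHBNa list, 44.5% (39.6 to 49.5). Window sequence nearest a start and nearest a finish was of like size, 2.59% and 2.61% of all sequence. Only the BHBNa interval left out an even split, and by little. Of all members, 51.3% and 51.7% lay outside the gene. These shares are near those of the sequence, where outside and inside stretches were 1.24% and 1.35% at starts and 1.28% and 1.33% at finishes. A peak covered the gene end in 5 of 193 members (2.59%) and 20 of 491 (4.07%), and 2 and 11 of these ends were finishes. The share that peaks of such width would cover by position alone was not computed. Ends of 2 or more genes lay within 3 kb of 17 H2O2 members (8.81%, interval 5.57 to 13.7) and of 62 BHBNa members (12.6%, 9.98 to 15.9), against 14.5% of the window sequence. Starts of neighbouring genes with no finish near, made up 4 and 19 of these. Only the H2O2 interval lay below the share of sequence.

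The strength of members was set beside that of other peaks. In the H2O2 list, 6 of 193 had a q, the peak caller's p-value corrected for multiple testing, of at most 0.05, 3.11% (1.43 to 6.62), where all peaks of chromosomes 1 to 22 gave 7.08%. The BHBNa list had 83 of 491, 16.9% (13.8 to 20.5), where all peaks gave 15.1%. The H2O2 interval touched the edge of that of its other peaks (7.21%, 6.57 to 7.91), and the BHBNa interval held the share of its others (15.0%, 14.3 to 15.7).

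Members of the H2O2 list had a median fold of 3.39 (interquartile range 3.08 to 3.75), against 3.51 for its other peaks. The median was 2.72 (2.66 to 3.50) in the BHBNa list, against 2.72. The highest member reached 5.74 and 8.17. Widths were alike too, with medians of 287 and 320 bp against 297 and 324 bp for the other peaks. Members rested on the fewest possible fragments in 49 cases in the H2O2 list (25.4%, 19.8 to 32) and in 284 in the BHBNa list (57.8%, 53.4 to 62.1), against 20.9% and 51.5% of other peaks. The H2O2 interval included the share of the others and the BHBNa interval did not. Of BHBNa members at starts, 111 of 169 had 2 fragments (65.7%, 58.2 to 72.4), as had 56.4% (49.7 to 62.9) of those at finishes, and these intervals overlapped. The local control background was lower at members than at other peaks, with medians of 0.419 against 0.492 and of 0.135 against 0.154 fragments, and its part in these shares was not tested.

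**Figure D3:**
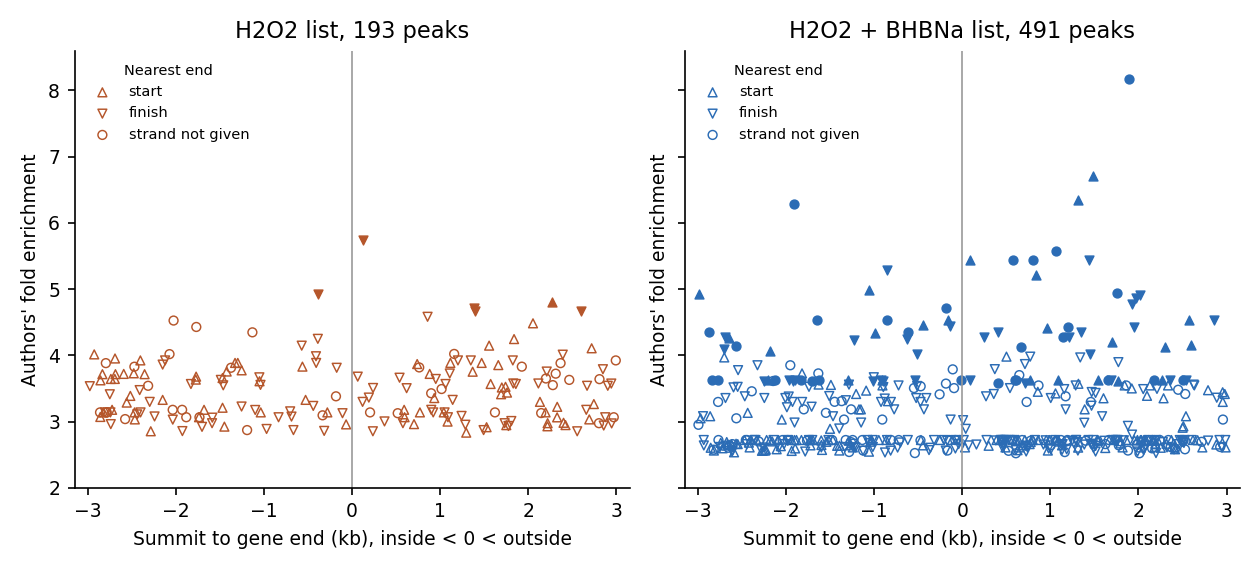
The authors' fold enrichment (vertical axis, linear from 2) of every member against the signed distance of its summit to the nearest gene end in kb, negative inside the gene. Filled symbols have a q of at most 0.05, 6 of 193 and 83 of 491; the row of symbols at 2.72 in the right panel is the fold of 2 fragments over the lowest background.

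At starts, the highest member of the H2O2 list lay 2269 bp before KITLG, the ligand of the receptor KIT (chr12:88582341-88582868). Its fold was 4.81, its q 0.0350, and 7 fragments supported it. It was the sole H2O2 member at a start with a q of at most 0.05. The next were C4BPB, a chain of the complement regulator C4b-binding protein, at 4.48, and NDUFA5, an accessory subunit of respiratory complex I, at 4.25. CDON, a co-receptor of hedgehog signalling, followed at 4.15, MANSC4 at 4.11 and SYCP3, a protein of the meiotic synaptonemal complex, at 4.01. The MANSC4 summit, 2720 bp before that start, was also inside KLHL42, 2723 bp from the start of KLHL42. The NDUFA5 summit, before its start, likewise lay inside the span of another gene. OR6N1, an olfactory receptor, and RPS6KA2, a ribosomal S6 kinase, closed the 8 highest at 3.95 and 3.92. These 8 summits lay 1556 (CDON) to 2928 bp (SYCP3) from the start, all outside the first kb.

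At finishes, the H2O2 list had 5 members with a q of at most 0.05. The highest was at ACSM4, a member of the family of medium-chain acyl-CoA synthetases, where the peak covered the finish (chr12:7328712-7329056). Its summit lay 120 bp beyond the finish of ACSM4 and inside the span of another gene, CD163L1. With 10 fragments this peak reached a fold of 5.74 (q 0.000772). MYOZ2, a protein of the muscle Z-disc, had a fold of 4.92 (q 0.0272). CALCA, which encodes calcitonin and its related peptide, had 4.71, and TAF3, a subunit of the general transcription factor TFIID, had 4.66, both with a q of 0.0350. SLC35A5, a solute carrier, also had 4.66. OR13C8, CRKL and DIPK1A followed at 4.58, 4.25 and 4.15.

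Some peaks with as many fragments had lower folds. Outside the rule for named genes, and picked for their fragments after the values were seen, BTBD19 had 11 fragments with a fold of 3.64, and PSMB2, a proteasome subunit, had 10 with a fold of 3.66. Their local backgrounds were 2.29 and 2.01, against 0.917 at ACSM4 with 10 fragments.

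At starts in the BHBNa list, the highest member was at LOC124902361, an uncharacterised gene, with a fold of 6.71, and the next at ZC3H7B, an RNA-binding zinc finger protein (chr22:41300166-41300483). Both summits lay before the start of the named gene and inside the span of another gene. The ZC3H7B summit lay 1317 bp before the start, with a fold of 6.35 (q 3.84e-06) on 6 fragments, and RANGAP1, a regulator of the GTPase Ran, also had an end within 3 kb of it. PDIA4 had 5.44 (q 0.000148), with its summit 83 bp before the start. OR10J5 had 5.22, CES4A, a carboxylesterase, 4.99 and DMP1, a matrix protein of bone and dentin, 4.92. ARFGAP3, which acts on the GTPase ARF, and NMT2 both had 4.54 from 4 fragments. Of these 8 summits, those of PDIA4, NMT2 (163 bp) and OR10J5 (839 bp) lay in the first kb.

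At finishes in the same list, PDE4A, a phosphodiesterase of cyclic AMP, had the highest fold, 5.44 (chr19:10470830-10471302), 1442 bp beyond the finish. GFRA1, a receptor of glial cell-derived neurotrophic factor, had 5.28. MB21D2 had 4.92, ALCAM, an adhesion molecule, 4.86 and ADAM10, a membrane protease, 4.78. RAB10, a GTPase of membrane traffic, CMSS1 and C1orf115 followed at 4.54, 4.45 and 4.43. All 8 rested on 4 or 5 fragments, and 6 of the 8 lay beyond the finish rather than inside the gene.

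Where strand was not given, the members of the BHBNa list included its highest of all, named after its values were seen. C1orf21 had a fold of 8.17 (q 9.56e-10) with 8 fragments, 1898 bp outside an end of the gene (chr1:184385005-184385297). HSD17B6, a steroid dehydrogenase, followed RAB38 at 5.57, and ADAMTS15, a secreted protease, and DPRX, a homeobox protein, had 5.44 each. Of 111 such members, 28 had a q of at most 0.05, 25.2% (18.1 to 34.0), against 14.2% (9.73 to 20.3) of 169 at starts and 14.7% (10.5 to 20.1) of 211 at finishes. These intervals overlapped.

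A peak lay within 3 kb of an end of 207 genes in the H2O2 list, 1.08% of 19126, and of 547 in the BHBNa list, 2.86%. Both lists held one at 8 genes, 3.86% of the former and 1.46% of the latter: CACNA2D3, CAGE1, EZH2, FCRL2, KITLG, LOC124902361, NSD2 and RAB38. The peaks overlapped at LOC124902361 and RAB38 only. That is 2 of 193 members (1.04%, interval 0.285 to 3.70) and 2 of 491 (0.407%, 0.112 to 1.47), where other peaks of chromosomes 1 to 22 overlapped the other list in 1.18% and 0.643% of cases. Both intervals included the share of the other peaks.

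At LOC124902361, on chromosome 10, the summits lay 1751 bp (H2O2) and 1483 bp (BHBNa) before the start. The fold was 2.95 from 6 fragments over a background of 1.38 in the H2O2 list. In the BHBNa list it was 6.71 from 9 fragments over 0.490, with a q of 1.90e-05. At RAB38, a GTPase of lysosome-related organelles, the peaks (chr11:87805478-87805776 and chr11:87805465-87805730) lay inside the gene near an end whose strand was not given. The fold was 3.18 from 4 fragments in the H2O2 list and 6.29 from 7 in the BHBNa list, over backgrounds of 0.573 and 0.272. Both regions thus held peaks above a local background well over the lowest of each list, and had more fragments and a lower background in the BHBNa list.

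In 4 of the other 6 genes the lists marked opposite ends. EZH2, the histone methyltransferase of the polycomb repressive complex, had its H2O2 summit 2151 bp inside its start (fold 3.33, 5 fragments). Its BHBNa summit lay 1739 bp beyond its finish (fold 2.72, 2 fragments). NSD2, another histone methyltransferase, had a fold of 3.14 inside its start in the H2O2 list and of 2.72 inside its finish in the BHBNa list. KITLG had 4.81 before its start and 2.90 inside its finish. CACNA2D3, an auxiliary subunit of calcium channels, went the other way, with 3.33 beyond its finish in the H2O2 list and 2.72, 254 bp inside its start, in the BHBNa list. FCRL2, an Fc receptor-like protein, had both summits inside its start, 2859 and 1395 bp away, and CAGE1 had both near 1 end, 2027 bp inside and 1459 bp outside.

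Few genes carried several gene-end peaks in a list. In the H2O2 list they were ENSA, a regulator of protein phosphatase, and SLC35A5. ENSA had 3 peaks around a gene of 8367 bp, with folds of 2.98 beyond its finish, 3.72 inside its start and 3.06 before its start. SLC35A5 had 2 at its finish, at 3.63 and 4.66. The BHBNa list had 11 such genes: B4GALT6, FAM186A, FAM43A, HSDL2, KCTD10, KDM2A, KLKB1, LOC124904792, OR10J5, PARP16 and TEX52. At HSDL2 the peaks lay at opposite ends, with folds of 3.47 and 3.45. KDM2A, a histone demethylase that binds unmethylated CpG, had 2 around its finish, both at 2.72 from 2 fragments. At OR10J5, a gene of 930 bp, 1 of the peaks lay within 3 kb of both ends.

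Genes of energy metabolism were read against the shares of all genes, 1.08% and 2.86%. Of 35 complex I genes on chromosomes 1 to 22, 2 had a peak there in the H2O2 list and 3 in the BHBNa list, 5.71% (1.58 to 18.6) and 8.57% (2.96 to 22.4). The intervals start just above the shares of all genes. In all, 13 gene lists, chosen with earlier results of these data known, and 3 gene families were read in this way. No interval was corrected for that number. NDUFA5 (4.25, 1839 bp before its start) and NDUFB6 (3.63, 1775 bp inside its start) held the H2O2 peaks. A RefSeq start of another gene, ASB15, lay nearer the NDUFA5 summit, at 1669 bp. Among the BHBNa peaks, NDUFS6 had 3.63 from 3 fragments (q 0.0485) and NDUFB5 had 3.61 from 5 fragments. No complex I gene had one in both lists. Complexes II to V had 0 of 38 in each list, an interval up to 9.18%.

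Fuel pathways had 1 or 2 members at most. In fatty acid oxidation (35 genes) ACADL, an acyl-CoA dehydrogenase, had a fold of 3.99 inside its finish in the H2O2 list. ACSL1, which activates long-chain fatty acids, had 3.55 beyond its finish in the BHBNa list. Of 25 genes of ketone bodies and acyl-CoA, ACSM4 (5.74) and the monocarboxylate carrier SLC16A7 (3.77) had one in the H2O2 list and ACSM6 (3.23) in the BHBNa list. These are 8.0% (2.22 to 25.0) and 4.0% (0.71 to 19.5), and the H2O2 interval, from 2 genes, starts above the 1.08% of all genes. OGDHL, a relative of the oxoglutarate dehydrogenase subunit, was the sole member of the TCA cycle and pyruvate list (31 genes), at 2.66 in the BHBNa list. Mitochondrial biogenesis and dynamics (28 genes) and antioxidant and NRF2 genes (29) had 0 in both lists, with upper bounds of 12.1% and 11.7%.

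Enzymes that write and remove histone marks numbered 58. The H2O2 list marked an end of 2 of them, 3.45% (0.951 to 11.7), and the BHBNa list of 5, 8.62% (3.74 to 18.6). The latter interval lay above the 2.86% of all genes. Genes of this list were long, with a median of 55.5 kb against 25.9 kb for genes with known strand. The members were EZH2 and NSD2 in both lists, with KAT6A, an acetyltransferase (3.31), KDM1A, a demethylase (2.65), and KDM2A (2.72) in the BHBNa list. Of the 6 BHBNa peaks at these genes, KAT6A had 3 fragments and the others 2, so that with at least 3 fragments KAT6A alone would count.

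Proximal tubule genes, the markers of the tissue HK-2 came from, had 0 of 31 in both lists (up to 11.0%), and peaks do not measure expression, so the cell type was not checked by them. Injury and fibrosis genes had 0 and 1 of 31, the latter ZEB2, a repressor of epithelial genes, at 2.61. Apoptosis and p53 genes had 0 and 2 of 30, CASP8, an initiator caspase, at 2.57 and TIGAR, a p53 target in glycolysis, at 3.35. Widely expressed genes had 1 and 2 of 28, among them the ribosomal protein genes RPL5 at 4.15, a peak shared with the finish of DIPK1A, and RPS6 at 3.03. Genes of other tissues had 0 and 1 of 31, GFAP, a filament of astrocytes, at 2.72. Intervals of all these lists included the share of all genes.

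Olfactory receptors, genes used mainly by sensory neurons of the nose, had 7 of 391 in the H2O2 list, 1.79% (0.870 to 3.65). In the BHBNa list they had 16, 4.09% (2.53 to 6.54). Neighbours can share a peak, as OR8G1 and OR8G5 did (3.18). OR13C8 (4.58) and OR6N1 (3.95) led in the H2O2 list, and OR10J5 (5.22) and OR1D2 (3.55) in the BHBNa list. Zinc finger genes had 2 of 505, 0.396% (0.109 to 1.43), and 10, 1.98% (1.08 to 3.61). Solute carriers had 5 of 372, 1.34% (0.575 to 3.11), and 6, 1.61% (0.741 to 3.47). Each of the 3 families had an interval that included the share of all genes in both lists.

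**Figure D4:**
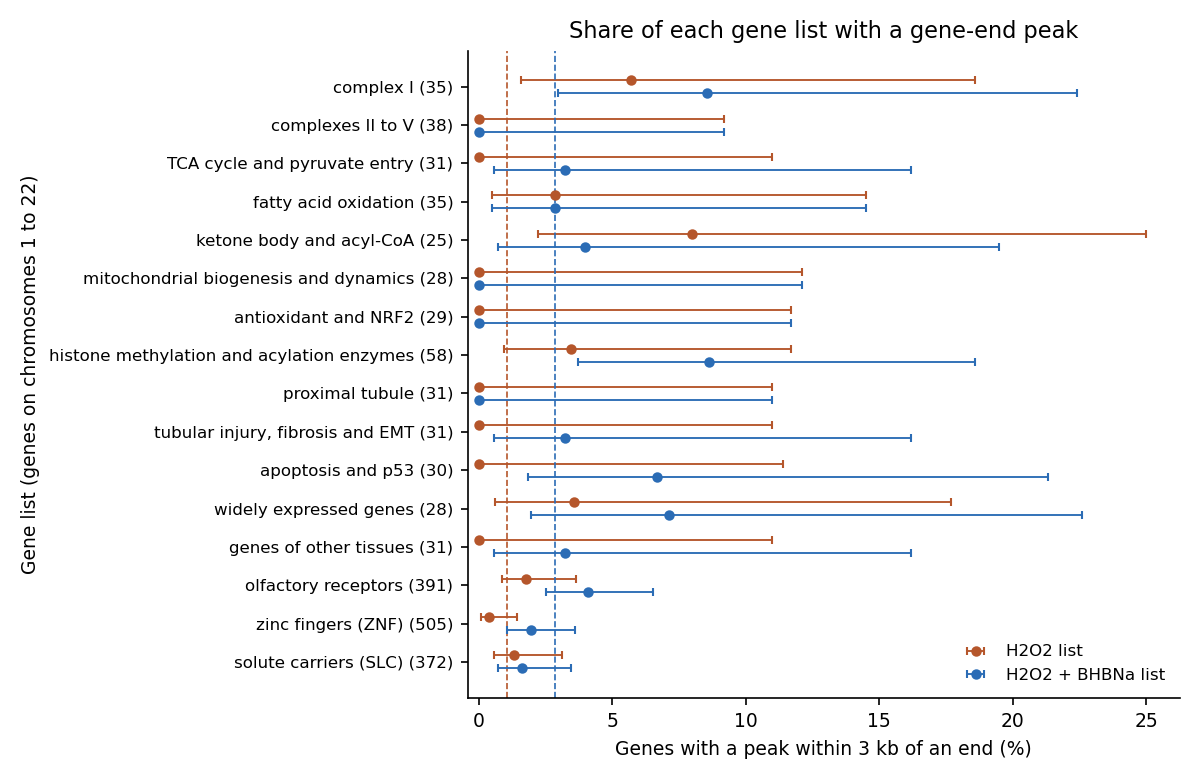
Percent of the genes of each list with a peak within 3 kb of an end (horizontal axis), with 95% Wilson intervals; the number of genes on chromosomes 1 to 22 is in brackets, and dashed lines mark all genes, 1.08% (H2O2) and 2.86% (BHBNa). Intervals of complex I (from 1.58% and 2.96%), of ketone body and acyl-CoA genes in the H2O2 list (from 2.22%) and of histone enzymes in the BHBNa list (from 3.74%) start above their dashed line. They are picked from 13 gene lists and 3 families in each peak list, with no correction for that number.

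Promoters of the genes with a peak near the start were compared with all promoters. The RefSeq windows run from 250 bases before to 50 after the start, and 15101 genes had one. A GC box was present in 58.7% of all of them, in 39.3% (29.5 to 50) of 84 genes with a start within 3 kb of an H2O2 summit, and in 57.8% (50.9 to 64.3) of 206 such genes in the BHBNa list. CpG-rich promoters made up 66.1% of all, 57.1% (46.5 to 67.2) of the 84 and 64.6% (57.8 to 70.8) of the 206. The letters TATAAA were present in 9.83% of all, 16.7% (10.2 to 26.1) of the 84 and 6.80% (4.09 to 11.1) of the 206. Among these 3 features, only for the GC box and TATAAA in the H2O2 list did the interval leave out the value of all genes, and only for the GC box did the intervals of the lists not overlap. These genes were also longer, with medians of 50.1 and 31.2 kb against 25.9 kb.

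Genes with a peak near the finish alone gave a comparison that does not involve the promoter. Their promoters were CpG-rich in 60.5% (49.6 to 70.4) of 81 genes in the H2O2 list and 71.2% (65.0 to 76.7) of 226 in the BHBNa list. They held a GC box in 45.7% (35.3 to 56.5) and 58.4% (51.9 to 64.6). The H2O2 list was thus low in GC boxes at genes marked at either end, with overlapping intervals.

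In all, 8 motifs were searched as plain letters on both strands. The NRF1 motif stood in 0 of 84 and 3 of 206 promoters (1.46%), against 1.78% of all. The antioxidant response letters TGACNNNGC stood in 14.3% and 11.2%, against 14.3%, and CCAAT in 35.7% and 39.3%, against 36.1%. CACGTG, an E-box, stood in 2.38% (0.655 to 8.27) and 4.85% (2.66 to 8.70), against 8.71%, just above both intervals. The motif of estrogen-related receptors stood in 1 of 84 and 0 of 206, against 0.219%, and that of PPAR in 0 of both, against 0.0199%. A match to letters is a description and not a bound site.

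The limit of 3 kb cut through a continuous range of distances. Just inside it lay the H2O2 summits at TENT4A (2994 bp, fold 3.92) and HRG (2978 bp, 3.53), and just outside that at RSPO1 (3005 bp, 3.30). In the BHBNa list PALS2 (2996 bp, 2.95), AP5S1 (2989 bp, 2.61) and DMP1 (2989 bp, 4.92) lay just inside, and RNF7 (3018 bp, 2.57) just outside.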

How the data were processed

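Reads were handled with MACS2 2.2.7.1, Bowtie2 2.4.2 and fastp 0.20.1 on build GRCh38, per the submitters' processing notes; settings are not given in the sources used here. Values the authors deposited per peak are a ratio (fold enrichment at the summit), the −log10 of p and of q, a score and the summit's position. Each treatment had 1 peak list, called from 1 IP library; the file under its control holds the same peaks. All deposited peaks were kept. IP fragments and local background were recovered from fold and p (tolerance 0.001 on the −log10 scale). Gene spans were those of RefSeq on GRCh38.p14 and strand from its promoter table, which has no entry for chromosome 8; exons and UTRs were not used here. A summit counted for its nearest end. The members and the 13 gene lists were chosen with earlier results of these data known. Named genes are those in both lists, with overlapping peaks, with several peaks, covering a start with a q of at most 0.05, the 8 highest folds at starts and at finishes per list, and up to 3 per gene list; some results are not reported here. Shares have 95% Wilson intervals and densities exact Poisson intervals, for counting error within 1 library; no test between treatments was possible. Python 3.11.15, numpy 2.4.6, pandas 2.3.3, scipy 1.17.1 and matplotlib 3.10.9 were used, tested on simulated data. Alternative distances, limits on q and fragments, and overlap rules were tried.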

Additional observations from a re-analysis of the deposited data

How the results depend on the processing

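Values give H2O2 first and BHBNa second. No paired analysis was possible because each treatment had 1 IP library, and no replicate could be left out. With ends taken as 1, 2 or 5 kb, summits near ends made up 0.765% and 1.29%, 1.94% and 3.07%, or 5.77% and 8.09%, and genes numbered 47 and 153 (0 in both lists), 124 and 357 (3 in both), or 370 and 985 (29 in both), by construction of the window. Starts made up 28.2% and 34.0% of members at 1 kb, and 39.4% at 2 kb in the BHBNa list. At 1 kb, promoters were CpG-rich in 33.3% and 57.5% of genes, and 20.9% of BHBNa members had a q of at most 0.05. Among peaks with a q of at most 0.05, 1.44% and 5.11% of summits lay near ends, at 6 and 93 genes (0 in both). Starts then made up 16.7% in the H2O2 list, and the CpG share there rested on 1 gene (100%). With a q of at most 0.01 the strong share was 0.518% and 5.5%. A −log10 q of at least 5 left 0% and 3.64% of summits, 0 and 3 genes (0 in both) and 100% starts, from 1 BHBNa peak of known strand. Among BHBNa peaks with at least 3 fragments, 3.99% of summits lay near ends, with 38.7% starts and 225 genes (4 in both). Within 1 kb, a q of at most 0.05 gave 0 and 0.296 summits per Mb at starts and 0.0724 and 0.398 at finishes; at least 3 fragments gave 0.444 and 1.12 at BHBNa starts and finishes, and starts that were not CpG-rich gave 0.737 in the H2O2 list. These density limits were chosen after seeing the data, and smaller counts follow from fewer peaks. The other 34 values, among them all with chromosome X, any base of the peak, or other overlap rules, moved less than their limits.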
